A study of Rattus norvegicus with 6 samples.

Results

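The collagen genes other than type IV were described in pituitary RNA-seq of adult rats exposed to nicotine before birth. The members of the family were picked by their symbols, as every row whose symbol has the form Col, a number, the letter a and a chain number, with the type IV chains left out and with at least 10 counts summed over the 6 libraries. This gave 37 genes of the 38 rows that matched the pattern outside type IV, among 33294 gene symbols in the files. Of the 37 genes, 35 passed edgeR's filter on low counts and were tested with 17292 genes in all. The genes just inside the limit were Col9a1, with 15 counts in total, and Col17a1, with 35 counts. The gene just outside it was Col10a1, with 9 counts.

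The libraries came from the pituitary gland of male Sprague-Dawley rats aged 11 weeks, with 1 library per rat. The 3 nicotine rats were offspring of dams that carried an osmotic mini-pump with nicotine tartrate at 6 mg/kg/day, and the 3 control rats were offspring of dams whose pump held sterile saline. Pumps had been implanted under the skin 13 days before birth, which the labels place on gestational day 19. The pumps were of a type made to run for longer than these 13 days, so delivery to the dam could have continued after birth. Exposure is therefore not known to have ended at birth. The labels do not say when the pumps were emptied or removed, nor which rats shared a dam, so p-values measure the spread between these rats.

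Collagens are the main structural proteins of the extracellular matrix. Their chains wind into a helix that is secreted as procollagen, trimmed outside the cell and, in the fibril-forming types, assembled and cross-linked into fibrils. Other collagens coat the fibrils, build beaded filaments or networks, anchor basement membranes, or span the plasma membrane of cells. In the pituitary, collagen fibrils lie in the capsule, in the connective tissue around vessels and in the space around capillaries. Fibroblasts, pericytes and endothelial cells are the usual sources of these fibrils.

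Library totals ran from 28318383 to 85977002 counts, and nicotine replicates 2 and 3 were deeper than every control library. The 7 anterior lobe hormone genes that define the labelled tissue summed to 113538 to 176311 CPM per library, where CPM is the count scaled to a common library size. The 5 testis germ cell genes, checked because the extraction text in the labels speaks of testis, summed to at most 0.0849 CPM per library. Library sizes were scaled by TMM factors. CPM is not divided by gene length, so levels are compared between libraries and not between genes. A gene counted as called where its adjusted p was under 0.1 and its fold change exceeded 1.5.

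The collagen genes together held a small share of the RNA in both groups. They took between 0.0350% and 0.0512% of the counts of a library. Their summed level was 371, 361 and 478 CPM in nicotine replicates 1, 2 and 3, and 366, 510 and 502 CPM in control replicates 1, 2 and 3. The groups overlapped, with means of 403 ± 64.9 CPM in the nicotine group and 459 ± 80.8 CPM in the control group (SD, n = 3 each). The make-up of the sum differed between the groups. The type I and type III chains Col1a1, Col1a2 and Col3a1 held 40.8% to 44.4% of the collagen counts of a nicotine library, against 50.6%, 55.1% and 62.1% in control replicates 1, 2 and 3. Every nicotine library lay under every control library in this share, which was chosen after the values were seen and was not tested. The other genes summed to 219, 201 and 267 CPM after nicotine and to 181, 229 and 191 CPM in controls, with overlap.

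No collagen gene was called in edgeR's quasi-likelihood test, where 0% of all genes tested were called. DESeq2 called none of the 35 either, against 0.347% of the 17876 genes to which it gave an adjusted p. The adjusted p of the collagen genes lay between 0.760 and 0.997 in edgeR, and the smallest from DESeq2 was 0.207, for Col1a1. At an unadjusted p under 0.05 edgeR placed 6 collagen genes higher after nicotine, or 17.1%, against 3.13% of all genes tested. It placed 5 lower, or 14.3%, against 3.01% of all genes tested. DESeq2 gave the same counts of 6 and 5 at an unadjusted p under 0.05, beside 1154 of the 24546 genes it fitted, in both directions together. The median log2 fold change of the 35 genes was 0.15, beside 0.01 over all genes tested, and it lay between -0.01 without nicotine replicate 3 and 0.21 without nicotine replicate 2. Of the 35, 21 had a log2 fold change above 0, or 60%, as did 8824 of the 17292 genes tested. The spread of the collagen genes was wider than that of the table as a whole, with a median absolute log2 fold change of 0.42 against 0.19. Their standard errors were also larger, with a median of 0.31 against 0.22. Fewer reads fell on them, with a median of the mean CPM of 4.81 against 14.0 over all genes tested.

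**Figure D1:**
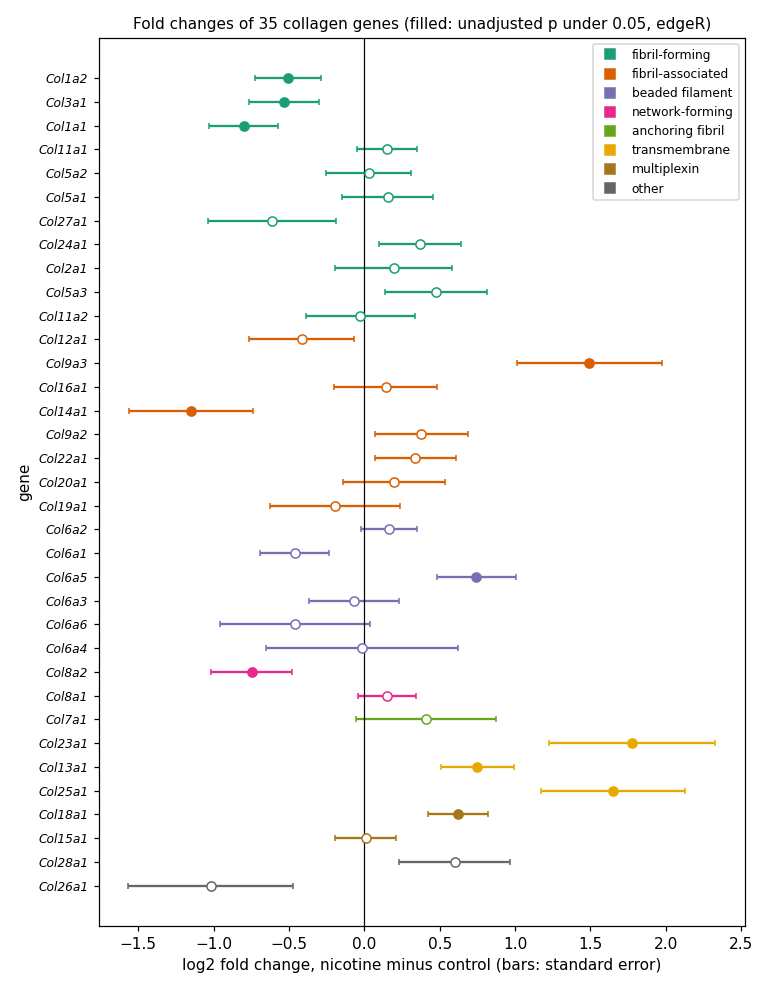
Log2 fold change of the 35 tested collagen genes, nicotine minus control, with bars of 1 standard error from edgeR's quasi-likelihood fit, grouped and coloured by class. The 11 filled points have an unadjusted p under 0.05, and they lie between -1.15 for Col14a1 and 1.78 for Col23a1.

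Each of the 6 genes placed higher also had its 3 nicotine libraries above its 3 control libraries. This held for no other collagen gene, so 17.1% of the collagen genes showed it, against 6.12% of all genes tested. The opposite pattern, every nicotine library under every control library, held for Col1a1 alone, or 2.86%, against 5.14% of all genes tested. With 3 libraries a group the exact two-sided permutation test cannot give a p under 0.1, and all 7 genes without overlap had this value.

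**Figure D2:**
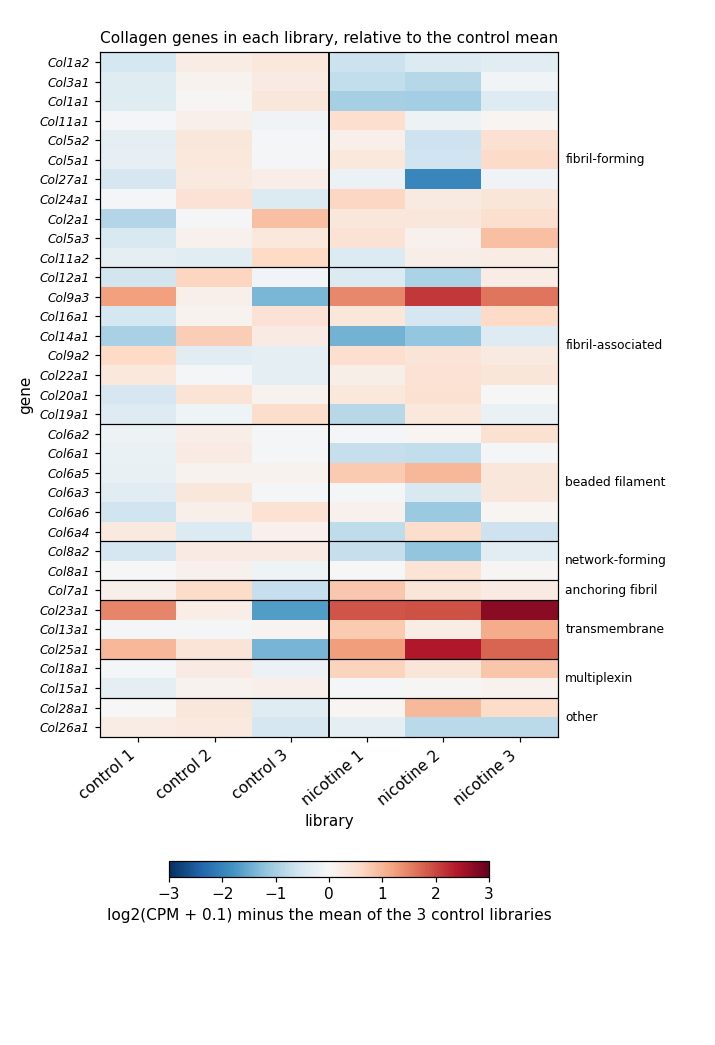
Level of each tested collagen gene in each of the 6 libraries, as log2(CPM + 0.1) minus the mean of the 3 control libraries, with genes in rows by class and libraries in columns. The rows of Col9a3, Col23a1 and Col25a1 are red in the 3 nicotine libraries and, less so, in control replicate 1, and blue in control replicate 3. The rows of Col1a1, Col14a1 and Col8a2 are blue in nicotine replicates 1 and 2.

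Among the fibril-forming collagens, 11 of 11 were tested, 6 had a log2 fold change above 0 and 5 below, and the class median was 0.03. The 3 with an unadjusted p under 0.05 were the chains of the common interstitial fibrils, and all were lower after nicotine. Col1a1, the alpha 1 chain of type I collagen, was at 28.3, 27.9 and 43.3 CPM in nicotine replicates 1, 2 and 3, against 43.6, 58.2 and 71.5 CPM in control replicates 1, 2 and 3. The groups did not overlap, but nicotine replicate 3 and control replicate 1 lay within 1 CPM of each other. The log2 fold change of Col1a1 was -0.80 with a standard error of 0.23 (edgeR adjusted p = 0.760), and with 1 library left out at a time it lay between -1.04 and -0.62. Col1a2, the other chain of type I collagen, was at 78.5, 91.4 and 97.1 CPM after nicotine and at 84.4, 143 and 152 CPM in controls. Control replicate 1 lay among the nicotine libraries, and the log2 fold change was -0.51 with a standard error of 0.22 (edgeR adjusted p = 0.806). Col3a1, the chain of type III collagen that forms thin reticular fibrils with type I, was at 44.4, 41.1 and 70.0 CPM after nicotine and at 57.3, 80.0 and 87.9 CPM in controls. Here nicotine replicate 3 lay above control replicate 1, and the log2 fold change was -0.54 with a standard error of 0.23 (edgeR adjusted p = 0.806). In bulk tissue fewer cells of a type and less RNA per cell cannot be told apart.

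The minor fibril-forming chains had values on both sides of 0. Col11a1, a chain of type XI collagen that sets fibril diameter, was at 26.5, 17.0 and 19.4 CPM after nicotine and at 18.4, 20.8 and 17.4 CPM in controls, with overlap and a log2 fold change of 0.15 (standard error 0.20). Col5a1 and Col5a2, chains of the type V collagen that starts fibrils, had log2 fold changes of 0.15 and 0.03. Col5a3, a rarer chain of type V, had 0.48. Col24a1, a fibril chain of developing bone and cornea, had 0.37 and lay between 4.20 and 5.43 CPM after nicotine and between 2.62 and 4.79 CPM in controls. Col27a1, a fibril chain of cartilage, had -0.61, at 4.61 ± 2.57 CPM in the nicotine group and 6.89 ± 1.89 CPM in the control group (SD, n = 3 each). Nicotine replicate 2 stood apart for Col27a1, at 1.65 CPM against 5.96 and 6.23 CPM in the other nicotine libraries, and the log2 fold change was -0.21 without it. The cartilage chains Col2a1 and Col11a2 lay between 0.739 and 2.75 CPM in every library, with log2 fold changes of 0.20 and -0.03. The 6 cartilage and bone markers summed to 0.182 to 0.721 CPM per library, only Bglap, the bone matrix protein osteocalcin, passed the filter (log2 fold change -0.05), and the cartilage proteoglycan gene Acan was at 0 in nicotine replicate 1 and control replicate 1.

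Fibril-associated collagens, which sit on the surface of fibrils, held the lowest value of the whole family and 1 of the highest. Of 9 such genes with enough counts 8 were tested, 5 above and 3 below 0, with a median of 0.17. Col14a1, a chain that binds type I fibrils in dense connective tissue, was at 1.49, 1.78 and 3.12 CPM after nicotine and at 2.07, 6.92 and 4.89 CPM in controls. Control replicates 2 and 3 lay above all nicotine libraries and control replicate 1 did not. Its log2 fold change was -1.15 with a standard error of 0.41 (edgeR adjusted p = 0.776), and it was -0.73 without control replicate 2. Col12a1, its close relative, went the same way with more overlap, at 7.95 ± 3.26 CPM in the nicotine group and 10.5 ± 4.51 CPM in the control group (SD, n = 3 each), which gave a log2 fold change of -0.42 that became -0.01 without control replicate 2.

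Col9a3, a chain of the type IX collagen best known from cartilage, was at 5.64, 9.05 and 6.36 CPM after nicotine and at 4.87, 2.23 and 0.713 CPM in controls. The groups did not overlap, and the distance from control replicate 3 to control replicate 1 was wider than that from control replicate 1 to nicotine replicate 1. The log2 fold change was 1.49 with a standard error of 0.48 (edgeR adjusted p = 0.760), and it ranged from 1.04 without control replicate 3 to 2.22 without control replicate 1. Its partner chain Col9a2 had 0.38, and Col9a1, the remaining chain, had only 0, 3 and 3 counts after nicotine and 4, 0 and 5 counts in the controls and was not tested. The other tested genes of the class were Col16a1 at 0.14, Col19a1 at -0.19, Col20a1 at 0.20 and Col22a1 at 0.34 in log2 fold change, each with overlapping groups.

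The type VI genes, whose chains form beaded filaments close to cells, split into members with opposite signs. Col6a2 was at 24.8, 26.9 and 35.8 CPM after nicotine and at 23.2, 29.5 and 25.3 CPM in controls, with a log2 fold change of 0.17 (standard error 0.19). The Col6a2 value turned to -0.00714 without nicotine replicate 3. Col6a1, which encodes the chain built into the same filaments, was at 13.1, 12.6 and 20.7 CPM after nicotine and at 18.3, 25.0 and 20.6 CPM in controls, with a log2 fold change of -0.46 (standard error 0.23). Nicotine replicates 1 and 2 lay under every control library for Col6a1, and nicotine replicate 3 lay among them. Col6a3, the long chain of the standard filament, had close means, with 2.69 ± 0.759 CPM in the nicotine group and 2.76 ± 0.637 CPM in the control group (SD, n = 3 each). Col6a5, one of the later described chains, was at 4.75, 5.57 and 3.49 CPM after nicotine and at 2.33, 2.93 and 2.96 CPM in controls. Its groups did not overlap, and the log2 fold change was 0.74 with a standard error of 0.26 (edgeR adjusted p = 0.765). Its relatives Col6a4 and Col6a6 were under 0.9 CPM in every library and had log2 fold changes of -0.01 and -0.46.

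The network-forming chains of type VIII collagen, which occur in vessel walls and in the membrane under endothelia, also differed from each other. Col8a2 was at 10.7, 7.57 and 13.8 CPM after nicotine and at 12.2, 20.7 and 20.6 CPM in controls. Only control replicate 1 lay among the nicotine libraries, and the log2 fold change was -0.75 with a standard error of 0.27 (edgeR adjusted p = 0.771). Col8a1 was at 13.0 ± 2.22 CPM in the nicotine group and 11.7 ± 1.08 CPM in the control group (SD, n = 3 each), which gave a log2 fold change of 0.15. Col10a1, the network chain of growth plate cartilage that missed the limit on counts, had 0, 4 and 4 counts after nicotine and 1, 0 and 0 in controls. Col7a1, whose product forms anchoring fibrils under epithelia, was under 0.8 CPM in every library, with a log2 fold change of 0.41 (standard error 0.47).

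Of the transmembrane collagens, all 3 that could be tested were higher after nicotine without overlap, with a median log2 fold change of 1.65. Col23a1 was at 15.0, 15.4 and 26.6 CPM in nicotine replicates 1, 2 and 3, against 11.2, 4.63 and 1.19 CPM in control replicates 1, 2 and 3. The groups did not overlap, and the controls spread widely, with control replicate 1 nearer to nicotine replicate 1 than to the other controls. Its log2 fold change was the highest of the family, at 1.78 with a standard error of 0.55 (edgeR adjusted p = 0.760), and it ranged from 1.29 without control replicate 3 to 2.68 without control replicate 1. Col25a1, a neuronal collagen that motor axons need in development, was at 6.30, 14.2 and 8.94 CPM after nicotine and at 5.28, 3.40 and 0.925 CPM in controls. The order of the controls was the same as for Col23a1, and the log2 fold change was 1.65 with a standard error of 0.48 (edgeR adjusted p = 0.760), with a range from 1.21 without control replicate 3 to 2.15 without control replicate 1. Col13a1, which sits at cell adhesion sites and at the neuromuscular junction, was at 12.2, 8.27 and 15.4 CPM after nicotine and at 6.91, 6.90 and 7.50 CPM in controls. Here the controls lay close together, and the log2 fold change was 0.75 with a standard error of 0.24 (edgeR adjusted p = 0.760). Col17a1, the hemidesmosome collagen of skin, had 5, 8 and 13 counts after nicotine and 3, 4 and 2 in controls and was not tested.

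Of the multiplexins, which are collagens with interrupted helices in basement membranes, Col18a1 was higher after nicotine without overlap. Col18a1, the source of endostatin, was at 19.7, 16.0 and 22.4 CPM after nicotine and at 11.9, 14.7 and 11.0 CPM in controls. The log2 fold change was 0.62 with a standard error of 0.20 (edgeR adjusted p = 0.760), and it lay between 0.50 and 0.76 with 1 library left out at a time. Col15a1, its relative, had close means, at 9.07 ± 0.551 CPM in the nicotine group and 8.99 ± 1.43 CPM in the control group (SD, n = 3 each). Of the remaining genes, Col28a1 had a log2 fold change of 0.60 (standard error 0.37) and Col26a1 one of -1.02 (standard error 0.55), the latter at under 0.4 CPM in every library.

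**Figure D3:**
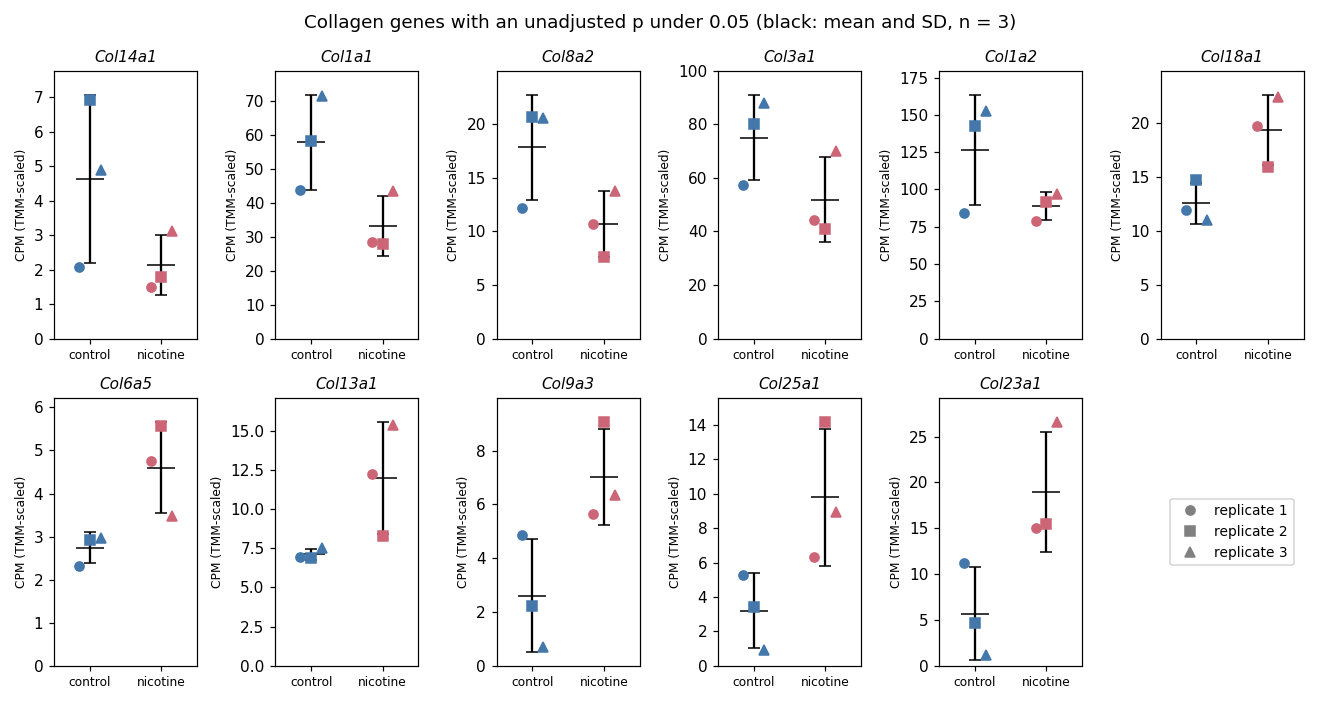
Level in CPM, scaled by TMM factors, of the 11 collagen genes with an unadjusted p under 0.05 in each control (blue) and nicotine (red) library, ordered by log2 fold change, with the mean and SD of 3 libraries in black. The groups do not overlap for Col1a1, Col18a1, Col6a5, Col13a1, Col9a3, Col25a1 and Col23a1, and the 3 control libraries of Col23a1 spread from 1.19 to 11.2 CPM.

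Bases upstream of the gene start are shown for Col23a1 and Col13a1, the most and the least shifted of the transmembrane genes, and for Col8a2, which differed the other way. They come from RefSeq on build GRCr8 at chr10:36050077-36050326 (plus strand), chr20:30466801-30467050 (minus strand) and chr5:143870519-143870768 (plus strand), whereas the counts were made on rn7. Each run holds the 250 bases before the start, 5′ to 3′ on the strand of the gene. Capitals mark the TATA box core (TATAAA), the CCAAT box and the GC box (GGGCGG) on either strand.
Col23a1: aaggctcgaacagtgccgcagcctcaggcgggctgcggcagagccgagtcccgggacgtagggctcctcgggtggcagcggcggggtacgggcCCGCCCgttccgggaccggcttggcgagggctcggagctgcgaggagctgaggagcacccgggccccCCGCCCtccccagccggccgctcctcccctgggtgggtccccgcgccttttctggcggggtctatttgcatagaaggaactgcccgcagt
Col13a1: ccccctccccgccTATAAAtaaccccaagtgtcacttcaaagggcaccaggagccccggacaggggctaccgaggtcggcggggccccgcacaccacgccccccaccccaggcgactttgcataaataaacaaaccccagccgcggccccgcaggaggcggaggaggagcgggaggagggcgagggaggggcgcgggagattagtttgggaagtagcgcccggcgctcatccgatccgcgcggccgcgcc
Col8a2: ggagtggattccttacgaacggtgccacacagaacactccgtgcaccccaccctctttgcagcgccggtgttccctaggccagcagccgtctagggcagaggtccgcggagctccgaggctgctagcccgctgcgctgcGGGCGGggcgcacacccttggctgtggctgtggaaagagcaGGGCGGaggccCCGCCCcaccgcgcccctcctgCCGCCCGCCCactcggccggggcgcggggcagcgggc

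Col23a1 held GGGCGG at 2 places, both on the reverse strand, and Col8a2 held it at 5 places, a pair of which overlap. Col13a1 held TATAAA from position -237 relative to the gene start. Among the 33469 upstream runs of this length in the table, 12.9% held TATAAA, 34% CCAAT and 30.5% GGGCGG. Of the 37 collagen genes 28 were matched in that table, with 31 runs, of which 3 held TATAAA, 9 CCAAT and 15 GGGCGG. The guanine and cytosine content was 73.2%, 69.2% and 73.2% in Col23a1, Col13a1 and Col8a2, above the median of 51.2% over all runs. These matches are letters in the sequence and were not tied to the RNA levels.

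Ratios of chains within a library need no scaling between libraries. The ratio of Col1a1 to Col1a2 counts was 0.361, 0.305 and 0.446 after nicotine, against 0.517, 0.408 and 0.469 in controls. The groups overlapped, and the mean log2 ratio differed by -0.34 (exact two-sided permutation p = 0.2, 0.267 after Benjamini-Hochberg adjustment over 8 ratios). The other 7 ratios were chosen after the counts were seen. Col6a1 to Col6a2 was the clearest, at 0.527, 0.469 and 0.580 after nicotine and 0.789, 0.848 and 0.814 in controls. The nicotine libraries lay well under the controls, with a log2 difference of -0.64 (exact permutation p = 0.1, the smallest possible, adjusted 0.2). Col1a1 to Col3a1 lay between 0.619 and 0.679 after nicotine and between 0.728 and 0.813 in controls, without overlap and with a log2 difference of -0.25. Col9a2 to Col9a3 also lay lower without overlap (log2 difference -1.39), and Col5a1 to Col5a2 lay higher without overlap (log2 difference 0.11). The ratios of Col6a3 to Col6a2, Col8a1 to Col8a2 and Col11a1 to Col5a1 overlapped between groups, with log2 differences of -0.21, 0.88 and 0.03.

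**Figure D4:**
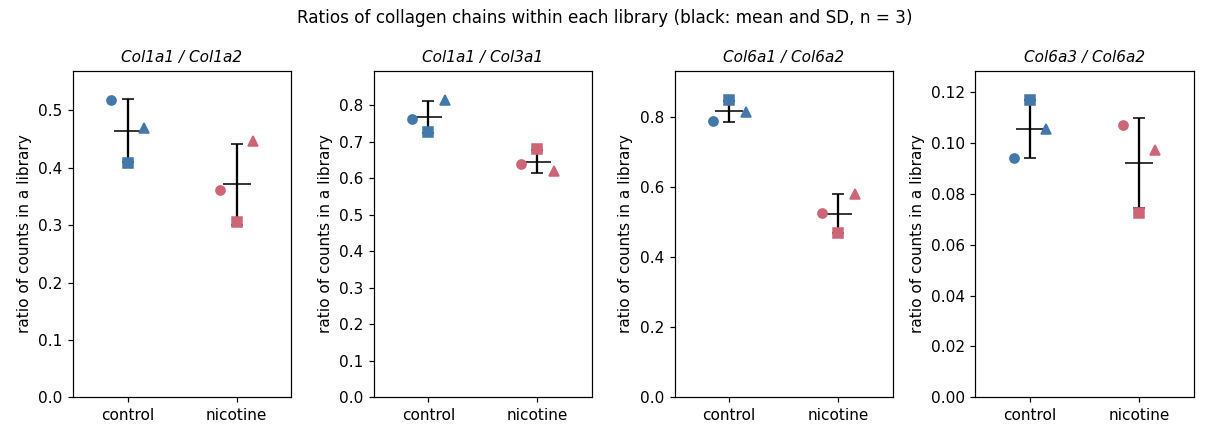
Ratio of the counts of pairs of collagen chains in each library, without scaling, for control (blue) and nicotine (red), with the mean and SD of 3 libraries in black and axes from 0. The Col6a1 to Col6a2 ratios lie between 0.469 and 0.580 after nicotine and between 0.789 and 0.848 in controls, whereas the Col1a1 to Col1a2 ratios overlap.

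The enzymes and partners of collagen were read from 5 lists, and 0 of their genes was called by edgeR or DESeq2. Of 19 folding and modification genes tested, 12 lay above 0 and 7 below, with a median log2 fold change of 0.03 that ran from -0.02 without control replicate 3 to 0.13 without nicotine replicate 1. P4hb, the disulfide isomerase subunit of prolyl 4-hydroxylase and the most abundant of them, had 0.03. P4ha3, a catalytic subunit of the same enzyme, was the only one with an unadjusted p under 0.05, at 1.02, 2.63 and 2.40 CPM after nicotine and 3.58, 3.50 and 3.78 CPM in controls, a log2 fold change of -0.81. Of 11 genes for procollagen cleavage and cross-linking tested, 7 lay above and 4 below 0, with a median of 0.09 that became -0.19 without nicotine replicate 3. Pcolce, an enhancer of C-propeptide removal and the most abundant of them, had 0.51 (unadjusted p above 0.05). Adamts2, which removes the N-propeptide of types I, II and III, had -0.96 (standard error 0.37), the only one with an unadjusted p under 0.05.

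Most small proteoglycans that coat fibrils had a log2 fold change below 0, with 2 of 9 tested above 0 and 7 below and a median of -0.28. The median did not keep its sign, at 0.06 without nicotine replicate 2 and 0.01 without control replicate 2, and it was -0.67 without control replicate 3. Dcn, which encodes decorin and was the most abundant, was at 233, 101 and 246 CPM after nicotine and at 339, 430 and 284 CPM in controls, a log2 fold change of -0.86 with a standard error of 0.30 (edgeR adjusted p = 0.762). Lum, lumican, had -0.73 and Aspn, asporin, had -0.92, and for all 3 the nicotine libraries lay under the controls without overlap. Prelp and Fmod, the remaining members with an unadjusted p under 0.05, went the other way with 0.62 and 0.71. Kera was at 0 in all 6 libraries.

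Of 12 genes for collagen breakdown and its inhibitors tested, 5 lay above and 7 below 0, with a median of -0.08 that became -0.24 without nicotine replicate 3. Timp2, a metalloproteinase inhibitor and the most abundant of them, had a log2 fold change of -0.00171. Of the 4 with an unadjusted p under 0.05, all lower, the smallest p values belonged to Mmp2, a gelatinase, at 8.83, 11.1 and 13.0 CPM after nicotine and 14.5, 23.8 and 17.3 CPM in controls (log2 fold change -0.76), and to the neutrophil proteases Mmp8 (-1.84) and Mmp9 (-1.86). Control replicate 2 was the lowest of all libraries for Mmp8 and Mmp9, so their groups overlapped. Of 9 collagen receptor genes, 7 lay above and 2 below 0, none with an unadjusted p under 0.05, with a median of 0.24 and 0.05 for Itgb1, the most abundant.

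Markers of several cell types moved between libraries together with some of these collagens, and their part in the differences was not tested. The 4 pituicyte markers, of the glia of the posterior lobe, summed to 60.8, 124 and 77.8 CPM after nicotine and to 85.7, 56.3 and 50.5 CPM in controls. All 4 lay above 0 in log2 fold change, 3 of them with an unadjusted p under 0.05, with a median of 1.35. Rax, a transcription factor of this glia, was at 5.16, 11.2 and 6.31 CPM after nicotine and at 5.69, 2.97 and 0.291 CPM in controls. Nkx2-1 and Lhx2, the other factors of the list, had log2 fold changes of 1.57 and 1.29, and Scn7a, the most abundant, had 0.30. Control replicate 3 was lowest and control replicate 1 highest among the controls for Rax, Lhx2 and Nkx2-1, as for Col23a1, Col25a1 and Col9a3. Among the nicotine libraries replicate 2 was highest for Col25a1, Col9a3 and all 4 markers, but replicate 3 was highest for Col23a1.

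Connective tissue markers were read beside the lower genes. Of 7 fibroblast markers 6 lay below 0, 3 with an unadjusted p under 0.05, with a median of -0.43. The fibroblast list summed to 127, 80.8 and 129 CPM after nicotine and to 123, 150 and 127 CPM in controls. Pi16, the most abundant, had -0.18, and Clec3b had -1.16 (adjusted p = 0.702 from edgeR and 0.0143 from DESeq2). Pdgfra and Mfap5 had -0.79 and -0.87, whereas Dpt, the fibroblast marker above 0, had 0.74 with overlapping groups. Of 7 meningeal and arachnoid markers 6 lay below 0, 2 with an unadjusted p under 0.05, with a median of -0.96. The meningeal list summed to 46.5, 31.2 and 66.0 CPM after nicotine and to 52.8, 76.4 and 73.5 CPM in controls. Foxd1 had -1.13 (adjusted p = 0.702 from edgeR and 0.0212 from DESeq2), Slc47a1 had -1.01 and Aldh1a2, the most abundant, had 0.29. No marker of either list was at 0 in any library. Nicotine replicate 2 had the lowest sum for both of these lists, and it was also the lowest library for Col1a1, Col3a1 and Col8a2. Col1a2 and Col14a1 were lowest in nicotine replicate 1, where Col1a1 was nearly as low, at 28.3 CPM against 27.9 CPM in nicotine replicate 2. The fibroblast sum of nicotine replicate 1 lay among those of the controls.

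Vascular markers were read beside Col18a1 and Col13a1, and none of them, like none of the pituicyte markers, was at 0 in any library. All 5 endothelial markers lay above 0, 3 with an unadjusted p under 0.05, with a median of 0.44, and they summed to 150 to 251 CPM after nicotine and 124 to 163 CPM in controls. Pecam1, an adhesion protein of endothelium, had a log2 fold change of 0.83, Plvap, the most abundant, had 0.71 and Kdr had 0.44. All 8 smooth muscle and pericyte markers lay above 0, 4 with an unadjusted p under 0.05, with a median of 0.82, and they summed to 53.8 to 213 CPM after nicotine and 45.2 to 62.2 CPM in controls. The high sum of nicotine replicate 3 came mostly from Tagln, the most abundant of the list, at 138 CPM there against 10.6 to 32.4 CPM elsewhere (log2 fold change 1.28). Acta2, smooth muscle actin, had 2.01 (adjusted p = 0.492 from edgeR and 0.00151 from DESeq2), Rgs5 had 0.94 and Cnn1 had 1.5. Acta2 was highest in nicotine replicate 1, Cnn1 in nicotine replicate 2 and the rest of this list in nicotine replicate 3. The groups overlapped for Cnn1, with control replicate 1 at 4.47 CPM against 3.39 and 3.75 CPM in nicotine replicates 1 and 3. Nicotine replicate 3 was the highest library for Col18a1, Col13a1 and all 5 endothelial markers. Nicotine replicate 2 lay above every control for both collagens, Pecam1 and Plvap, but under control replicate 2 for Cdh5, Kdr and Emcn. Of 4 Schwann cell markers 2 lay above and 2 below 0, with a median of 0.02, sums of 20.1 to 25.8 CPM after nicotine and 16.2 to 64.7 CPM in controls, -0.80 for Mbp, the most abundant, and 1.15 for Sox10, the only 1 with an unadjusted p under 0.05. Of the 7 hormone genes 4 lay above and 3 below 0, with a median of 0.38, 0.39 for Gh1, the most abundant, and 1.83 for Lhb, the only 1 with an unadjusted p under 0.05. Nicotine replicate 2 stood apart for Lhb, at 820 CPM against 216 and 223 CPM in the other nicotine libraries and 75.6 to 154 CPM in controls.

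**Figure D5:**
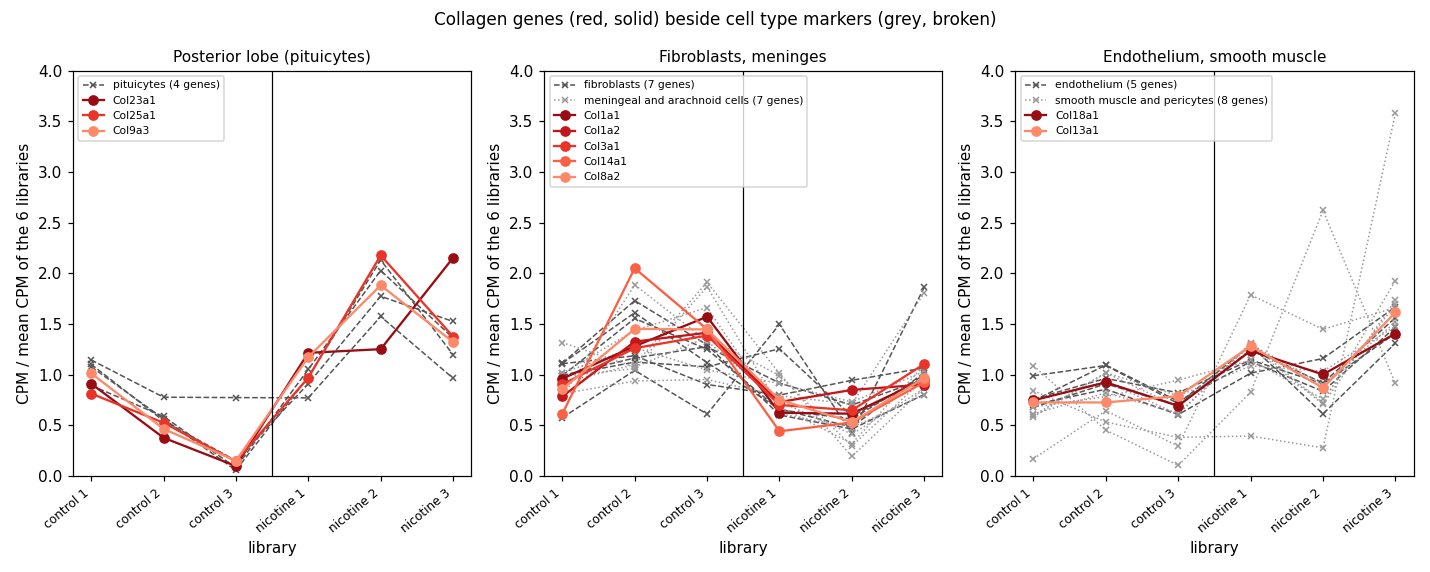
Level of collagen genes (red) and of every tested marker of the pituicyte, fibroblast, meningeal, endothelial and smooth muscle lists (grey) in each library, as CPM divided by the mean CPM of the 6 libraries. In the left panel Col25a1 and Col9a3, like 3 of the 4 markers, are lowest in control replicate 3 and highest in nicotine replicate 2, in the middle panel 5 collagens lie low in nicotine replicates 1 and 2, and in the right panel Col18a1 and Col13a1 are highest in nicotine replicate 3.

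Leaving out single libraries moved the count of lower collagen genes more than that of higher ones. The counts over all genes were not split by direction, so whether lower genes as a whole shifted alike was not tested. Between 5 and 6 collagen genes were higher at an unadjusted p under 0.05 without any 1 library. The count of lower genes was 1 without control replicate 2, 2 without control replicate 3 and 2 without nicotine replicate 1, and 4 to 6 without each of the others. Over all genes, in both directions together, 1062 of 17292 had an unadjusted p under 0.05 with all 6 libraries, 866 of 17422 without control replicate 2, 854 of 17752 without control replicate 3 and 1619 of 17844 without nicotine replicate 1. The count over all genes was 681 of 17812 without control replicate 1, 1166 of 17491 without nicotine replicate 2 and 1242 of 17408 without nicotine replicate 3.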

How the data were processed

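Pituitary RNA of 6 rats was sequenced, with 1 library per rat and groups taken from the labels. The deposited values are whole-number counts per gene symbol, which the authors made from stranded paired reads mapped to rn7 and assigned to the UCSC ncbiRefSeq annotation. The submitters' processing notes name HISAT2 2.1.0, featureCounts, bcl2fastq 2.20.0.422 and DESeq2 2.11.40.7. How reads mapping to several places were handled, the strand setting, and whether reads or pairs were counted are not given in the sources used here, so reads shared between related collagen exons could be lost or split.

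The collagen genes and the gene lists were chosen with earlier results of these data known. Counts were fitted in R 4.3.3 with edgeR 4.0.16 (filterByExpr, TMM, quasi-likelihood test, no covariate), with Benjamini-Hochberg adjustment over the 17292 genes tested, and with limma 3.58.1 and DESeq2 1.42.0 as alternatives. A call needed an adjusted p below 0.1 together with a fold change above 1.5. The standard error is the absolute log2 fold change divided by the square root of the F statistic. Single genes and ratios were compared by exact two-sided permutation tests over 10 groupings. All tested collagen genes are named, with values in each library for those at an unadjusted p under 0.05 or among the 8 with the highest mean CPM. Of each list, the gene with the highest mean CPM and up to 3 with an unadjusted p under 0.05 are named. Acan, Kera, Cdh5, Emcn, Dpt and the further proteoglycan genes with an unadjusted p under 0.05 were named after their values were seen. Depth was 28318383 to 85977002 counts per library, and the common biological coefficient of variation was 23.6%. The procedure was tested on simulated data. Alternatives were DESeq2, RLE scaling or none beyond library size, dropping the filter or asking for 10 counts in each library, the older quasi-likelihood fit, weighted voom, counts thinned to the shallowest library, a block for replicate number, and omission of each library in turn.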

Additional observations from a re-analysis of the deposited data

How the results depend on the processing

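None of the 35 collagen genes tested in the main fit was called under any of the 15 alternatives, and the smallest adjusted p was 0.207, for Col1a1 in DESeq2. Over all genes edgeR called 0, DESeq2 62, no filter 2, the replicate block 2, and library sizes alone, voom and thinning 1 each, with 0 to 9 when 1 library was left out. The labels do not say that replicate numbers mark pairs. Same-numbered libraries had correlations of 0.02, -0.19 and -0.08 in their deviations from the group means. With 3 libraries a group these values cannot show whether same-numbered rats shared a dam or were handled together. The block left the counts of collagen genes at an unadjusted p under 0.05 at 6 higher and 5 lower. Over all genes, 901 of 17292 had such a p under the block, in both directions together. Voom gave 6 higher and 3 lower genes, beside 1178 of 17292 over all genes in both directions together. Leaving out 1 library gave 1 to 6 lower genes, and 1 to 8 of the 35 with every nicotine library under every control. The latter count was 8 when control replicate 1 was omitted (7.70% of all genes) and 5 when nicotine replicate 3 was (11.1% of all genes). It was 2 without nicotine replicate 1 (12.6% of all genes), nicotine replicate 2 (10.8%) or control replicate 3 (11.5%). Without control replicate 2 it was 1 (10.7% of all genes). Genes with every nicotine library above every control numbered 6 to 9 with 1 library left out, beside 9.44% to 13% of all genes. Thinning gave 5 of these, beside 6.09% of all genes. Of 520 comparisons of a collagen gene under an alternative 489 kept the direction and 31 turned, 24 of them with a library left out, in 12 genes. None of these genes was called, and the cause was not tested. Col11a2 turned to 0.016 with library sizes alone, 0.11 with voom and 0.00489 with the replicate block, Col15a1 to -0.037 and Col6a3 to 0.012 with thinning, Col5a2 to -0.00482 with the replicate block, and Col6a4 to 0.045 with library sizes alone. With 1 library left out the log2 fold change lay between -0.051 and 0.27 for Col11a1, -0.23 and 0.37 for Col11a2, -0.11 and 0.085 for Col15a1, -0.12 and 0.41 for Col16a1, -0.61 and 0.14 for Col19a1, -0.10 and 0.76 for Col2a1, -0.10 and 0.42 for Col5a1, -0.22 and 0.27 for Col5a2, -0.00714 and 0.27 for Col6a2, -0.30 and 0.13 for Col6a3, -0.97 and 0.25 for Col6a4, and -0.011 and 0.23 for Col8a1. Col9a1 and Col17a1, at a few counts a library, were removed by the filter and got no adjusted p from edgeR's main fit or from DESeq2. They were not followed in the other alternatives.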
